A study of Rattus norvegicus with 6 samples.

Results

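Pre-mRNA splicing factors and heterogeneous nuclear ribonucleoproteins (hnRNPs) were followed in c-kit+ cells from the marrow of rats treated with phenylhydrazine. They were taken as every gene whose symbol belongs to the Srsf, Sf3a, Sf3b, Hnrnp, Snrpa to Snrpg or Prpf families, which gave 60 of the 17172 genes listed. The 60 comprise 6 proteins of the Sm core, 4 proteins particular to the U1 and U2 particles, 9 subunits of SF3a and SF3b, 12 pre-mRNA processing factors (Prpf), 11 SR proteins and 18 hnRNPs.

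ACI rats aged 6 to 8 weeks received an intraperitoneal dose of phenylhydrazine (PHZ) at 100 mg/kg or an equal amount of phosphate-buffered saline (PBS). PHZ oxidises haemoglobin and destroys circulating red cells, so the marrow responds to an acute anaemia. Marrow of the hind legs was collected 36 h after the injection, and c-kit+ cells, a mixture of stem, progenitor and early erythroid cells, were captured with an antibody and streptavidin particles. Polyadenylated RNA of 3 PHZ rats and 3 PBS rats was sequenced, 1 library per rat, and each group was described as 2 females and 1 male.

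Introns are removed by the spliceosome, which is built on each transcript from small nuclear RNAs bound by proteins. The U1 particle reads the start of an intron and the U2 particle its branch point, both carried on a ring of Sm proteins, while the SF3a and SF3b complexes hold U2 on the branch point. The Prpf proteins belong mainly to the U4/U6.U5 particle and to the catalytic complex. SR proteins mostly promote the use of exons, hnRNPs coat the nascent RNA and often oppose them, and many genes of both families control their own transcripts through alternative exons. In blood cells these genes are best known from human myelodysplastic syndromes, in which SF3B1, SRSF2, U2AF1 and ZRSR2 are recurrently mutated.

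The libraries held 13196249 to 19492793 expected counts, of which the 60 genes took 1.09% to 1.36%. Kit was present in every library, at 33.9, 55.1 and 71.6 CPM (counts scaled to library size) in PHZ rats and 54.9, 63.9 and 51.7 CPM in PBS rats, but so were transcripts of maturing cells, and globins took 8.95% to 20.9% of the counts. Transcripts of 3 Y-linked genes went against the labelled sex in 3 libraries, PHZ 3, PBS 1 and PBS 2. For the 60 genes PHZ 2 was the highest of the PHZ libraries in 39, and PBS 1 was the lowest of the PBS libraries in 30 (CPM).

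Of the 60 genes, 51 had a positive fold change after PHZ and 9 passed the test as higher (edgeR quasi-likelihood test, Benjamini-Hochberg adjusted p under 0.05 over 13547 genes). They were Snrpa1, Sf3a3, Prpf31, Srsf1, Hnrnpab, Snrpa, Snrpd1, Snrpb and Snrpf, with fold changes of 1.47 to 2.10. The 9 make 15.0% of the 60, where 8.99% of all tested genes were called higher. Among the 5304 genes averaging 5 or more on the log2 CPM scale, which include 56 of the 60, the shares were 16.1% and 15.3%, so the number of calls was near that of other well expressed genes. None of the 60 was called lower, where 4.17% of all genes and 5.18% of the well expressed ones were, with 2 lower at an unadjusted p under 0.05 and 1 lower by DESeq2, which called 19 higher (14.1% of all genes were called higher and 10.8% lower by DESeq2).

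The shift was broad and small. The median log2 fold change of PHZ over PBS was 0.31 over the 60 genes and -0.04 over all tested genes, and it was 0.32 against 0.09 among well expressed genes. The fold change was positive for 51 of the 60, where 47.6% of all genes were positive, and for 49 of the 56 well expressed ones, where 55.6% of well expressed genes were. In 34 of the 60 every PHZ library lay above every PBS library (CPM), where 22.5% of all genes did, and in 2, Srsf12 and Prpf40b, every PHZ library lay below, where 19.2% did. All 34 were among the 56 well expressed genes, and of all well expressed genes 32.7% lay above. Summed over the 60 genes, the level was 6130 ± 285 FPKM (fragments per kilobase of transcript, scaled to the size of the library) in PHZ rats and 5195 ± 194 FPKM in PBS rats (SD, n = 3 each).

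The calls depended on single libraries more than the fold changes did. Over all genes 1213 of 13811 were called higher without PHZ 1, 216 of 13919 without PHZ 2 and 374 of 13955 without PHZ 3. The count was 1024 of 13780 without PBS 1 and 0 without PBS 2 or without PBS 3. In these last 2 fits 3325 and 3291 genes had an unadjusted p under 0.05 in either direction. Of the 60 genes the number called higher was 9 without PHZ 1, 1 without PHZ 2, 2 without PHZ 3 and 5 without PBS 1. It was 0 without PBS 2 or without PBS 3, with 19 and 15 higher at an unadjusted p under 0.05. Without the 3 libraries that went against their sex label it was also 0, with 2 higher at an unadjusted p under 0.05. The median log2 fold change of the 60 stayed between 0.25 and 0.33 in all of these fits and under every scaling tried.

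**Figure D1:**
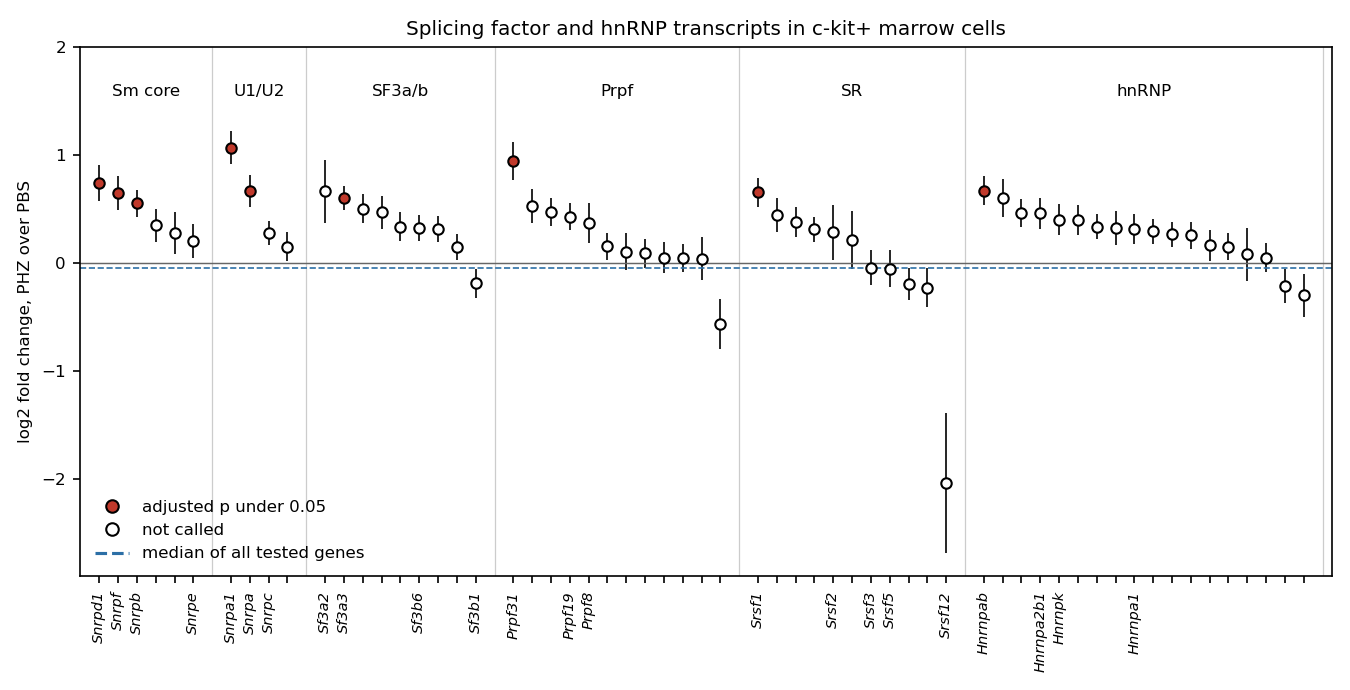
Log2 fold change of PHZ over PBS for each of the 60 genes, by family, from edgeR, with bars of 1 standard error. Names are printed for the genes that the rule for named genes takes, filled points are the 9 called genes, the dashed line is the median of all tested genes (-0.04), and 51 of the 60 points lie above 0.

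**Figure D2:**
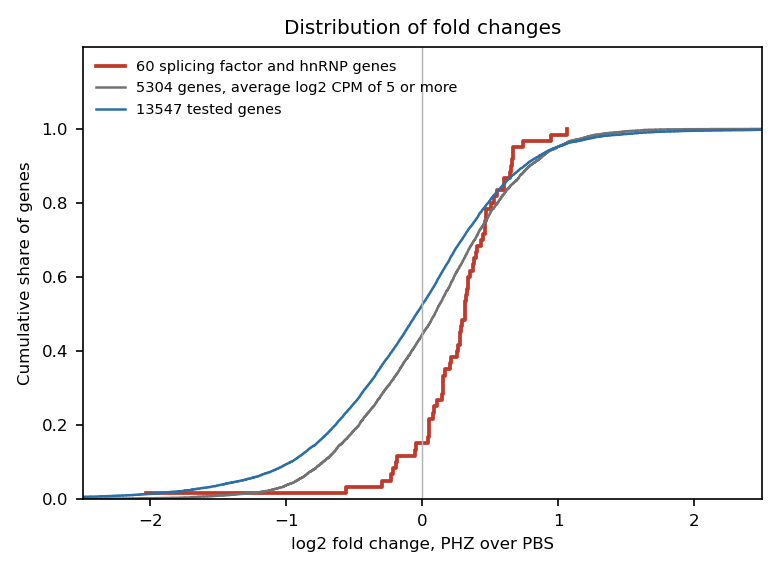
Cumulative share of genes by log2 fold change of PHZ over PBS, for the 60 splicing factor and hnRNP genes, the 5304 well expressed genes and all 13547 tested genes. The curve of the 60 genes crosses the middle at 0.31, that of the well expressed genes at 0.09 and that of all genes at -0.04.

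The marrow fraction itself also differed between the groups. As background for the counts below, 8.99% of all tested genes were called higher by edgeR and 4.17% lower. Of 22 cell cycle genes 19 were called higher, their sum being 6990 to 7840 CPM in PHZ rats and 3592 to 4350 CPM in PBS rats, and 6 of 11 erythroid markers were called higher, with sums that overlapped (69680 to 166630 CPM in PHZ rats and 75804 to 149590 CPM in PBS rats). Of B lineage markers 6 of 11 were called lower (390 to 450 CPM in PHZ rats and 902 to 1044 CPM in PBS rats), and of T and NK cell markers 7 of 10 (207 to 238 CPM in PHZ rats and 342 to 554 CPM in PBS rats). Neutrophil markers summed to 5927 to 10733 CPM in PHZ rats and 13001 to 24612 CPM in PBS rats, with 1 of 11 called lower. Monocyte and macrophage markers had sums that overlapped, 1300 to 2095 CPM in PHZ rats and 1505 to 4148 CPM in PBS rats. Of these 9 markers 0 were called by edgeR, with 1 lower at an unadjusted p under 0.05 and 1 by DESeq2. Mast cell and basophil markers summed to 396 to 634 CPM in PHZ rats and 693 to 1224 CPM in PBS rats, and megakaryocyte markers to 80.6 to 104 CPM in PHZ rats and 108 to 151 CPM in PBS rats, neither with a called gene by edgeR (2 of 7 and 1 of 5 lower at an unadjusted p under 0.05, and as many by DESeq2). Of the 5 progenitor markers tested, Procr was called lower, and none of the markers found in these lists was at 0 in all 6 libraries. The part of these shifts in the fold changes of the splicing genes was not tested, and in bulk RNA fewer cells of a type and less RNA per cell cannot be told apart.

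The promoters of 4 called genes are printed below to show letters that the choice of genes did not use. Of the 60 genes, 58 have a promoter window of 300 bases in RefSeq (build GRCr8). The sequence CCGGAA, the core recognised by ETS factors, occurred on either strand in 29 of the 58 windows (50.0%), in 29.3% of the windows of 8676 tested genes and in 15.8% of all 27457 windows. CCAAT, bound by NF-Y, occurred in 31 of 58 (53.4%), in 38.4% of tested genes and in 37.7% of all windows. In the sequences, capitals mark CCGGAA and CCAAT or their reverse complements, and in Snrpa a CCAAT and its reverse complement overlap. All are written 5′ to 3′ on the strand of the gene: Prpf31 from chr1:74502873-74503172 (minus strand), Snrpa from chr1:91617993-91618292 (minus), Snrpb from chr3:137832430-137832729 (minus) and Snrpa1 from chr1:129051800-129052099 (plus).
Prpf31: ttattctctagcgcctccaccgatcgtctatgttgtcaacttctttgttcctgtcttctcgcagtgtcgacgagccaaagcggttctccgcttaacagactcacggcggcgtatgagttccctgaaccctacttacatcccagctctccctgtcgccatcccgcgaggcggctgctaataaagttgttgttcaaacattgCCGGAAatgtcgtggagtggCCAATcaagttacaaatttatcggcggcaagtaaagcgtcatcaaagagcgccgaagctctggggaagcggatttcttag
Snrpa: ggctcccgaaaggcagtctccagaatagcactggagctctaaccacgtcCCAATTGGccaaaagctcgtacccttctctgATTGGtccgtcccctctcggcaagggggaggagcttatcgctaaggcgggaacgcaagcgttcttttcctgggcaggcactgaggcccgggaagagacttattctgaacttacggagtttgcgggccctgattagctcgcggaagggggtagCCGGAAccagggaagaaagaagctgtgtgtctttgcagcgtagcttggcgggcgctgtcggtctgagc
Snrpb: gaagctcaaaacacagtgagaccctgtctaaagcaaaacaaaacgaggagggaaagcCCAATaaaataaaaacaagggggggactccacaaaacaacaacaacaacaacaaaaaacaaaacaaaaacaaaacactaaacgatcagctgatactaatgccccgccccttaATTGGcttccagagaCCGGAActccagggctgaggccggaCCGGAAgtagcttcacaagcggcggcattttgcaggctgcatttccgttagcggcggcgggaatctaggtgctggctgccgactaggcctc
Snrpa1: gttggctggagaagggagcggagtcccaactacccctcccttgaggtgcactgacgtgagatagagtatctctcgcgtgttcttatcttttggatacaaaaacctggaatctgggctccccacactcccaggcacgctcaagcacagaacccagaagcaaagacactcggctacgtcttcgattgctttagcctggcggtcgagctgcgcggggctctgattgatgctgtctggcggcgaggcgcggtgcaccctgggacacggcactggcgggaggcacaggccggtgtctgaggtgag
The first 3 carry both motifs, Snrpb with CCGGAA in 2 places, while the window of Snrpa1, the called gene with the largest fold change, holds neither. Among the 9 called genes each motif was found in 6 windows. Of the other motifs searched on both strands, GGGCGG occurred in 56.9% of the members' windows and 62.0% of tested genes' windows, CACGTG in 13.8% and 9.61%, GATAA in 22.4% and 16.2%, TATAAA in 10.3% and 6.79%, TTTCCCGC in 5.17% and 2.18%, and GCATGC in 10.3% and 9.39%. The GC content of the windows had a median of 59.0% for the 58 genes and 60.7% for tested genes. The shares were not set against well expressed genes alone, to which 56 of the 60 belong. These matches describe letters in a window, and binding was not measured.

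The Sm ring and the U1 and U2 proteins held 5 of the 9 calls. Snrpd1, Snrpb and Snrpf were higher among the 6 Sm genes, whose products belong to the ring that carries spliceosomal RNAs. Snrpa1 and Snrpa were higher among the 4 U1 and U2 genes. Snrpd3, whose product is a further part of the Sm ring, was not listed under that symbol, so the 6 genes do not cover the whole ring. All 10 fold changes were positive, with a median log2 fold change of 0.45 for the Sm genes and 0.47 for the U1 and U2 genes. Of all tested genes 8.99% were called higher and 47.6% were positive. Of the well expressed genes 15.3% were called higher and 55.6% were positive. The same shares stand beside the counts of the families that follow, and no family was tested as a set. Summed levels were 837 ± 64.5 FPKM in PHZ rats and 672 ± 44.1 FPKM in PBS rats for the Sm genes, and 256 ± 21.5 FPKM in PHZ rats and 190 ± 4.49 FPKM in PBS rats for the U1 and U2 genes (SD, n = 3 each).

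Snrpa1, the U2 A' protein, was at 52.6, 48.2 and 42.3 FPKM in PHZ rats and at 25.9, 21.5 and 23.5 FPKM in PBS rats. The 2 groups were well apart, every PHZ rat exceeding every PBS rat, and the gene had the largest rise of the 60, a log2 fold change of 1.07 ± 0.15 (SE, as for all fold changes given with ±; 2.10-fold, adjusted p = 0.0187). Snrpa, the U1 A protein that binds a stem loop of U1 RNA, was at 66.5, 67.8 and 61.7 FPKM in PHZ rats and at 38.3, 49.2 and 41.2 FPKM in PBS rats. It rose 1.59-fold without overlap between the groups (adjusted p = 0.0354). The other 2 particle genes were not called. Snrpc, which steadies U1 on the intron start and was the most abundant of the 4, was at 113, 97.9 and 98.5 FPKM in PHZ rats and 89.7, 83.1 and 85.2 FPKM in PBS rats (log2 fold change 0.28 ± 0.11, adjusted p = 0.136). Snrpb2, the U2 B'' protein and partner of Snrpa1, had a log2 fold change of 0.15 ± 0.13 and overlapping groups, so the values of these 2 partners on U2 RNA lie apart, a difference that was not tested.

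Snrpd1, the Sm D1 protein, was at 87.0, 95.1 and 72.5 FPKM in PHZ rats and at 56.4, 55.4 and 48.3 FPKM in PBS rats. The PBS rats lay close together and all below the PHZ rats, with a rise of 1.67-fold (adjusted p = 0.0388). Snrpf, the Sm F protein, was at 82.2, 89.3 and 76.3 FPKM in PHZ rats and at 54.3, 62.0 and 49.7 FPKM in PBS rats, 1.57-fold higher (adjusted p = 0.0430). Snrpb, which encodes Sm B and B', was at 127, 121 and 111 FPKM in PHZ rats and at 82.9, 90.0 and 82.3 FPKM in PBS rats, 1.47-fold higher (adjusted p = 0.0390). Of the remaining Sm genes, Snrpe was the most abundant and overlapped between the groups, at 224, 243 and 215 FPKM in PHZ rats and 194, 219 and 206 FPKM in PBS rats (log2 fold change 0.21 ± 0.15, adjusted p = 0.380). Snrpd2 and Snrpg had log2 fold changes of 0.35 and 0.28 and were not called either, which leaves 3 of the 6 Sm genes uncalled.

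**Figure D3:**
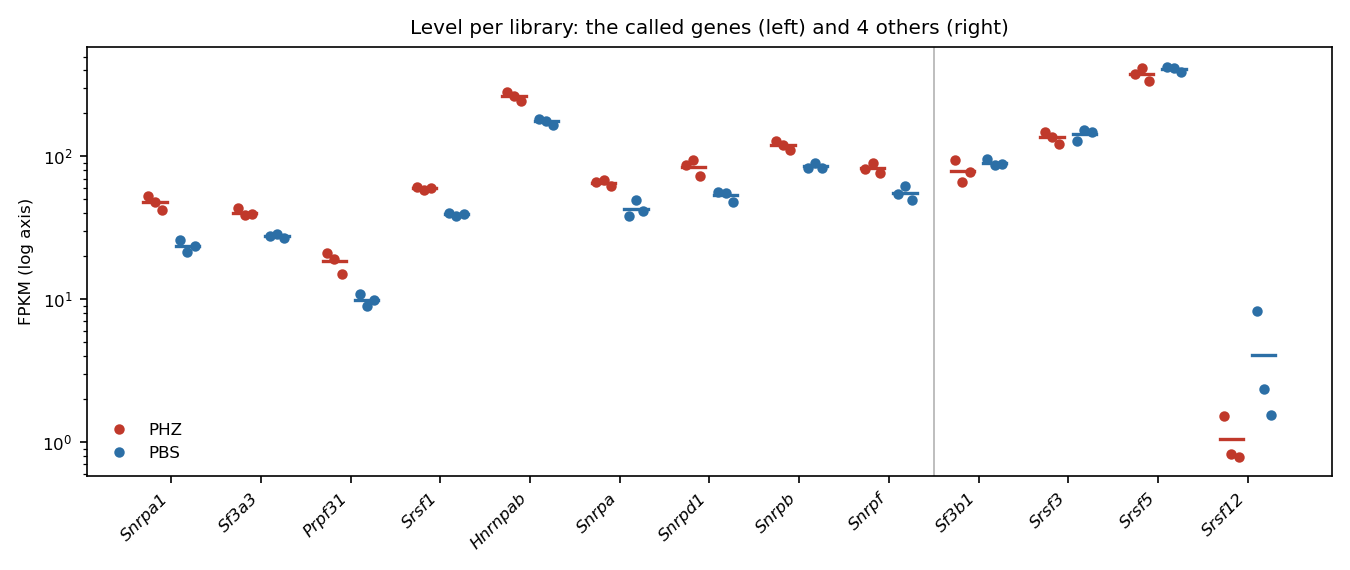
FPKM per library (log axis) for the 9 called genes, left of the line, and for Sf3b1, Srsf3, Srsf5 and Srsf12, right of it. Each point is 1 rat, with PHZ left of PBS within each gene, and bars are group means. In the 9 called genes all PHZ points lie above all PBS points, while those of Sf3b1, Srsf3 and Srsf5 overlap.

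Among the 9 genes of SF3a and SF3b, the complexes that clamp U2 to the branch point, 1 was called higher and 8 were not called, with a median log2 fold change of 0.34 and 8 positive values. Sf3a3 (SF3a60) was at 43.4, 38.7 and 39.2 FPKM in PHZ rats and at 27.6, 28.5 and 26.9 FPKM in PBS rats. These are tight groups with a clear gap, and the gene rose 1.52-fold (adjusted p = 0.0244). Sf3b1, the scaffold of SF3b that is mutated in human myelodysplasia with ring sideroblasts, was not called. It was at 94.9, 66.2 and 77.4 FPKM in PHZ rats and at 95.2, 87.7 and 87.8 FPKM in PBS rats, with PHZ 1 inside the PBS range, and its log2 fold change of -0.19 ± 0.14 (adjusted p = 0.364) was the only negative one of the 9.

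Sf3a2 (SF3a66) had the largest fold change of these 9 genes but also the largest spread, at 82.0, 120 and 111 FPKM in PHZ rats and 48.4, 87.9 and 69.8 FPKM in PBS rats. PHZ 1 lay inside the PBS range, and the log2 fold change of 0.66 ± 0.29 was not called (adjusted p = 0.163). Sf3b6, the branch-point binding p14 subunit and the most abundant of the 9, was at 110, 95.7 and 93.3 FPKM in PHZ rats and at 91.7, 84.0 and 72.6 FPKM in PBS rats, apart but not called (log2 fold change 0.33 ± 0.12, adjusted p = 0.109). Sf3b3 (SF3b130) came nearest to the threshold among the uncalled genes, with a log2 fold change of 0.50 ± 0.13 (adjusted p = 0.0523), a gene picked after its value was seen. The sum over the 9 was 587 ± 25.2 FPKM in PHZ rats and 484 ± 30.8 FPKM in PBS rats (SD, n = 3 each).

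The 12 Prpf genes had a median log2 fold change of 0.13 and 1 call. Of the 12, 11 had a positive value, but 8 did under upper-quartile scaling and 10 with library totals alone, so most of these directions are too small to read. Prpf31, which holds U4/U6 to U5 and is mutated in human retinitis pigmentosa, was at 21.1, 19.1 and 15.0 FPKM in PHZ rats and at 11.0, 9.01 and 9.85 FPKM in PBS rats. It stood apart from the family with a rise of 1.93-fold (log2 fold change 0.95 ± 0.18, adjusted p = 0.0250), the next being Prpf38a at 0.53 ± 0.16 (adjusted p = 0.0701).

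Prpf19, the ubiquitin ligase of the Prp19 complex and the most abundant Prpf gene, was at 75.4, 54.9 and 54.7 FPKM in PHZ rats and at 49.7, 48.9 and 43.5 FPKM in PBS rats. The groups did not overlap, yet the log2 fold change of 0.43 ± 0.13 was not called (adjusted p = 0.0673). Prpf8, the protein at the catalytic centre, was at 67.9, 34.7 and 51.4 FPKM in PHZ rats and at 41.2, 42.0 and 38.2 FPKM in PBS rats. In FPKM PHZ rats spread on both sides of the PBS rats, PHZ 1 being the highest and PHZ 2 the lowest of the 6. In CPM, scaled as in the test, PHZ rats were at 453, 285 and 376 and PBS rats at 284, 288 and 289. There PHZ 2 lay inside the PBS range, and the log2 fold change of 0.37 ± 0.19 was not called (adjusted p = 0.209). Prpf40b, the least abundant of the 60 genes, lay lower in every PHZ library, at 1.98, 1.47 and 2.03 FPKM in PHZ rats and 2.99, 3.36 and 2.08 FPKM in PBS rats (log2 fold change -0.56 ± 0.24, adjusted p = 0.146).

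The SR genes did not move as 1 family: 6 of the 11 fold changes were positive and 5 negative, and 1 gene was called. The median log2 fold change was 0.21, and it was -0.016 without PHZ 2. Srsf1 (ASF/SF2), the founding SR protein, was at 60.7, 58.6 and 60.3 FPKM in PHZ rats and at 40.2, 38.4 and 39.5 FPKM in PBS rats. Both groups were tight and far apart in FPKM, and the gene rose 1.57-fold (log2 fold change 0.65 ± 0.13, adjusted p = 0.0291).

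The most abundant of the 60 genes, Srsf5, overlapped between the groups, at 380, 417 and 335 FPKM in PHZ rats and 426, 417 and 390 FPKM in PBS rats (log2 fold change -0.05 ± 0.17, adjusted p = 0.858). Srsf3, the smallest SR protein, which controls its own exon use, was at 149, 137 and 122 FPKM in PHZ rats and at 128, 154 and 147 FPKM in PBS rats (log2 fold change -0.04 ± 0.16, adjusted p = 0.869). Both values changed sign when 1 library was left out, so neither has a direction here. Srsf2 (SC35), mutated in human myelodysplasia, was at 222, 302 and 258 FPKM in PHZ rats and at 175, 258 and 232 FPKM in PBS rats, with a spread within each group that exceeds the difference (log2 fold change 0.29 ± 0.25, adjusted p = 0.457). The summed level of the SR genes was 1176 ± 69.6 FPKM in PHZ rats and 1131 ± 81.2 FPKM in PBS rats (SD, n = 3 each), with overlapping libraries.

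Srsf12, an SR protein described as a splicing repressor in human cells, was the gene with the largest absolute fold change of the 60. Its level was low, 1.90, 1.37 and 0.996 CPM in PHZ rats and 11.6, 3.44 and 2.62 CPM in PBS rats, and every PHZ rat was below every PBS rat. The log2 fold change of -2.04 ± 0.64 was not called by edgeR (adjusted p = 0.0793) and was called by DESeq2 (adjusted p = 0.0160). PBS 1 carried much of it, for the log2 fold change was -1.07 without that library. The authors' deposited table marks Srsf12 as the only 1 of the 60 that went down (log2 ratio -1.95) and Snrpa1 as the only 1 that went up (log2 ratio 1.01), of 1183 genes down and 546 up in that table.

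The hnRNP genes were the largest and most abundant family, summing to 2922 ± 190 FPKM in PHZ rats and 2414 ± 85.2 FPKM in PBS rats (SD, n = 3 each), and no PHZ sum was as low as a PBS sum. Of the 18, 16 had a positive log2 fold change (15 under upper-quartile scaling and with library totals alone), and the median was 0.30. In 13 every PHZ library lay above every PBS library (CPM), where 22.5% of all genes and 32.7% of well expressed genes did. Only 1 was called higher, where 8.99% of all genes and 15.3% of well expressed genes were. Hnrnpab, a binder of AU-rich and CArG box sequences, was at 283, 266 and 244 FPKM in PHZ rats and at 183, 178 and 167 FPKM in PBS rats. It rose 1.59-fold with a wide gap between the groups (log2 fold change 0.67 ± 0.13, adjusted p = 0.0293).

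Hnrnpa2b1, the most abundant hnRNP, was at 384, 376 and 362 FPKM in PHZ rats and at 295, 276 and 274 FPKM in PBS rats. The groups were apart by more than their spread, yet the log2 fold change of 0.46 ± 0.14 missed the threshold (adjusted p = 0.0779). Hnrnpk, a poly(C) binding protein that holds back translation of lipoxygenase mRNA in rabbit reticulocytes, was at 248, 230 and 217 FPKM in PHZ rats and at 203, 176 and 166 FPKM in PBS rats, again apart and not called (log2 fold change 0.40 ± 0.14, adjusted p = 0.0990). Hnrnpa1, the classical antagonist of Srsf1 in the choice of splice sites, was at 318, 221 and 241 FPKM in PHZ rats. PBS rats were at 224, 214 and 212 FPKM, with PHZ 2 inside the PBS range. In CPM the groups were apart, at 617, 523 and 510 in PHZ rats and 446, 422 and 460 in PBS rats. The log2 fold change of 0.31 ± 0.14 was not called (adjusted p = 0.168).

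Hnrnph1 and Hnrnpdl were the 2 hnRNP genes with a negative value, and Srsf7 and Srsf11 were like them. These 4 were picked after their values were seen, because PBS 1 lay below PBS 2 and PBS 3 in all of them. Hnrnph1, which binds runs of G, was at 107, 108 and 107 FPKM in PHZ rats and at 102, 139 and 145 FPKM in PBS rats (log2 fold change -0.30 ± 0.20, adjusted p = 0.329). Without PBS 1 the log2 fold change was -0.47 for Hnrnph1, -0.38 for Srsf7, -0.31 for Srsf11 and -0.33 for Hnrnpdl, none of them called.

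The transcript length that the files list for each gene and library was examined as a second readout that the choice of genes did not use. It never differed between libraries for the 11673 genes with 1 annotated transcript and did so for 5284 of 5499 genes with several, so it varied where counts can be divided among transcripts, although the headers do not define it. It varied for 37 of the 60 genes, being shorter on average after PHZ in 25 and longer in 12, where 57.6% of 5122 tested genes were shorter. In 12 of the 37 every PHZ library had a shorter length than every PBS library, where 9.25% of genes did, and in 1, Hnrnpab, a longer one, where 3.69% did. No gene of the 5122 was called by limma on log2 length, while at an unadjusted p under 0.05 5.33% were shorter and 1.54% longer, against 9 and 1 of the 37, so these values are given as a description.

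Of the 10 SR genes whose length varied, 9 were shorter on average and 6 of these without overlap. Of 16 hnRNP genes 10 were shorter and 2 of these without overlap. Over all genes with varying length the shares were 57.6% and 9.25%, and a difference between the families was not tested. Srsf7, the SR protein with a zinc knuckle, had listed lengths of 1796, 1676 and 1722 bases in PHZ rats and of 2055, 2010 and 2089 bases in PBS rats. This is 15.6% shorter after PHZ with tight groups (adjusted p = 0.294, limma), at a level that differed little (123 ± 7.77 FPKM in PHZ rats and 126 ± 22.7 FPKM in PBS rats, SD, n = 3 each). Srsf11 had 3384, 3112 and 3256 bases in PHZ rats and 3540, 3566 and 3584 bases in PBS rats. Srsf12 was 11.7% shorter, Srsf4 3.42% shorter and Srsf3 1.46% shorter after PHZ, all without overlap. The lengths of Srsf12 rest on few counts, 40, 22 and 13 in PHZ rats and 191, 59 and 40 in PBS rats.

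Among the other families, Sf3b1 had 5340, 5269 and 5298 bases in PHZ rats and 5470, 5459 and 5488 bases in PBS rats, a 3.11% shorter mean with no overlap (adjusted p = 0.294, limma). Hnrnph1 was 5.51% shorter and Prpf3, a U4/U6 protein, 3.51% shorter, while Hnrnpab was 1.78% longer. FPKM is scaled by transcript length and counts are not, so the 2 measures can differ. Srsf7 had a log2 fold change of -0.23 by counts although its FPKM means were almost equal. The part of the listed length in this was not tested.

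**Figure D4:**
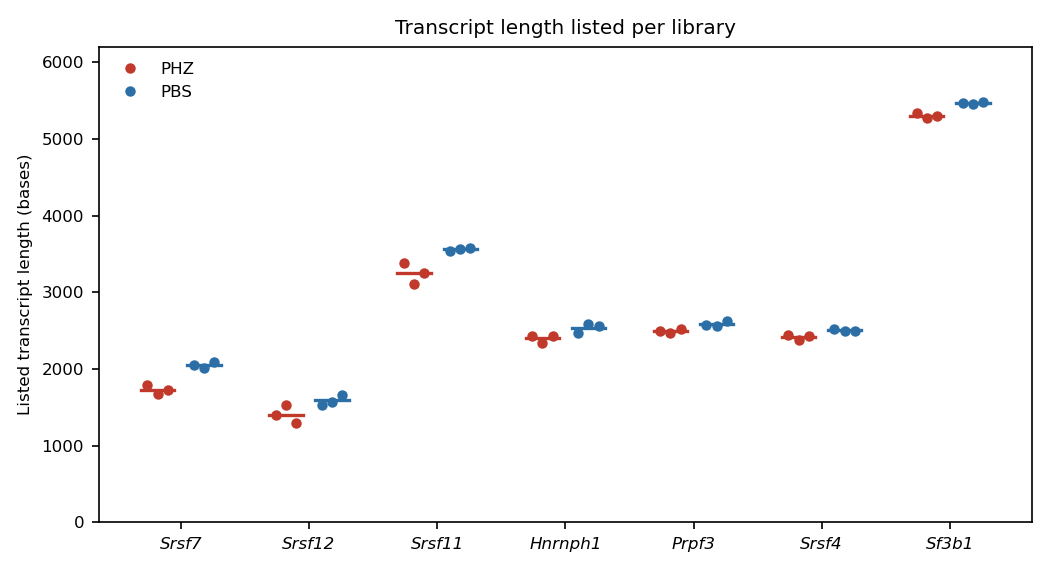
Transcript length in bases that the files list per library for 7 genes whose groups did not overlap and differed by over 2%. Each point is 1 rat, with PHZ left of PBS, and bars are group means. Srsf7 and Sf3b1 show clear gaps, Srsf7 with 1731 bases on average in PHZ rats and 2051 in PBS rats.

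Other spliceosome genes, listed by role, were read beside the 60. Of 129 such genes 122 were listed and 121 tested, 13 were called higher and 1 lower, and the median log2 fold change was 0.24. The 13 make 10.7% of those tested, where 8.99% of all genes were called higher, and 12.1% of the 91 well expressed ones were called, where 15.3% of such genes were, so the number of calls was near the background. The number called higher was 12 without PHZ 1, 1 without PHZ 2, 2 without PHZ 3, 9 without PBS 1 and 0 without PBS 2 or without PBS 3, where 24 and 26 were higher at an unadjusted p under 0.05. The 1 called lower became 3 without PBS 1 and 0 without PHZ 2, PHZ 3, PBS 2 or PBS 3. The called genes are named here by role, with no test of any list. Of the 16 genes listed for assembly of the Sm ring by the SMN complex 4 were called: Gemin6 was 2.29-fold higher (adjusted p = 0.0220), Prmt5, which methylates Sm proteins, 1.86-fold (adjusted p = 0.0214), Gemin5, which recognises the small nuclear RNA, 1.78-fold (adjusted p = 0.0235) and Smn1 1.51-fold (adjusted p = 0.0482). Prmt5 was at 35.0, 25.1 and 24.8 FPKM in PHZ rats and at 15.0, 17.7 and 14.3 FPKM in PBS rats, without overlap.

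Of the Lsm genes, most of which encode the ring on U6 RNA, 2 of 8 were called higher, where 8.99% of all tested genes were. Lsm2 was at 86.8, 102 and 81.4 FPKM in PHZ rats and at 45.6, 42.7 and 45.6 FPKM in PBS rats, 2.09-fold higher (adjusted p = 0.0227), and Lsm4 was 1.69-fold higher (adjusted p = 0.0238). The tri-snRNP genes Usp39 and Ddx23 were 1.54-fold and 1.50-fold higher (adjusted p = 0.0243 and 0.0356). U2af1, the subunit that reads the end of the intron, was at 110, 106 and 90.9 FPKM in PHZ rats and at 67.0, 80.4 and 65.9 FPKM in PBS rats, 1.50-fold higher (adjusted p = 0.0471), and Zrsr2 was not listed under that symbol and is not analysed here. Cwc15, Rnps1, Syncrip and Tardbp were the remaining calls upwards, at 1.45-fold to 1.64-fold, and Celf2, an RNA-binding regulator of exon choice in lymphoid cells, was 1.78-fold lower after PHZ (adjusted p = 0.0294).

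The kinases, cofactors and scaffolds of SR proteins were mixed in direction. None of these 14 genes was called by edgeR, with 1 higher at an unadjusted p under 0.05 and 1 called higher by DESeq2, 5 fold changes were positive, and the median log2 fold change was -0.05. Son, Rbm39 and Srrm2, proteins of nuclear speckles where splicing factors are stored, had log2 fold changes of -0.30, -0.29 and -0.36, lower in every PHZ library and not called. Srpk1, which phosphorylates SR proteins in the cytoplasm, had the smallest p of the list (log2 fold change 0.42 ± 0.11, adjusted p = 0.0576), and Clk1, a nuclear SR kinase, had -0.15 ± 0.13. Whether the Sm ring and this list differ was not tested.

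Some of these genes have close copies in the rat genome, and their counts carry that uncertainty. Of the 60, 14 had a count that was not whole in at least 1 library and 10 in all 6, among them Hnrnpa1, Hnrnpa3, Hnrnpab, Hnrnpc and Hnrnpk, as arises when a read matching several transcripts or loci is divided among them. A further 39 loci beside the 60 are described as hnRNPs, small nuclear ribonucleoprotein components or pre-mRNA processing factors. Some of them are outside the families counted here. Of these loci 29 have only a LOC name or a number given by the authors, and 11 of the 29 had a group mean of at least 10 FPKM. LOC100911576, described as hnRNP C1/C2, was at 70.2, 66.4 and 69.8 FPKM in PHZ rats and at 51.9, 47.9 and 60.0 FPKM in PBS rats, beside Hnrnpc itself at 107 ± 13.1 FPKM in PHZ rats and 108 ± 10.2 FPKM in PBS rats (SD, n = 3 each). Of the 9 called genes, Hnrnpab and Snrpd1 had a count that was not whole in at least 1 library.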

How the data were processed

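Polyadenylated RNA of c-kit+ cells was sequenced in 6 rats. The submitters' processing notes name HISAT, GATK, RSEM and the build rn6, without roles or versions. Per the file headers, the authors deposited an expected count (an estimate that need not be whole), an FPKM value and a transcript length per gene and library, and a comparison table with mean FPKM, a log2 ratio and a probability score. Genes not listed in a library were set to 0. Of the genes, 3762 have no symbol and could not match the rule. The genes and lists were chosen with earlier results of these data known.

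Expected counts were rounded and tested with edgeR 4.0.16 (TMM scaling, filterByExpr, robust quasi-likelihood fit, 4 residual degrees of freedom) in R 4.3.3, with group as the only term and p-values adjusted over 13547 genes. All 60 genes passed the filter. The biological coefficient of variation was 35.2%. CPM of single genes are TMM-scaled, and sums of CPM over a list are per library total. Replicates correlated at 0.911 to 0.951 and groups at 0.872 to 0.917 (log2 CPM), and no 2 replicates agreed within sampling noise. Alternatives were DESeq2 1.42.0, limma 3.58.1 on log2(FPKM + 1) and log2(FPKM + 0.1), other scalings, no filter, each library left out, sex as labelled, and a replicate block. Log2 transcript lengths were tested with limma, a test added after the data were seen. edgeR was tested on simulated data.

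Named genes are the called ones, the most abundant and the most changed gene of each family, and Sf3b1, Srsf1, Srsf2, Srsf3, Prpf8, Hnrnpa1, Hnrnpk and U2af1; others were chosen after their values were seen. Promoter sequences are from RefSeq (GRCr8), while gene values are on rn6.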

Additional observations from a re-analysis of the deposited data

How the results depend on the processing

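The median log2 fold change of the 60 genes was 0.25 to 0.33 in every setting run, whereas the calls moved. The number of the 60 called higher, 9 in the main analysis, was 19 with DESeq2, 5 with library totals alone, 5 with the labelled sex as a covariate (a label that the Y-linked transcripts contradict in 3 libraries), 0 with a replicate block, 0 without the 3 libraries with a sex mismatch (edgeR; 20 and 2 higher at an unadjusted p under 0.05), and 0 to 9 without 1 library, and 1 of the 60 was called lower with DESeq2. Over all genes the 1783 calls became 3421 with DESeq2, 1015 with library totals, 928 with labelled sex, 0 with the block, 0 without those 3 libraries (4641 and 1480 at an unadjusted p under 0.05), and 0 to 1744 without 1 library, and the share of calls that were higher, 68.3%, was 56.7% with DESeq2, 58.7% with upper-quartile scaling, 58.7% without PBS 1 and 81.2% without PHZ 2. Among the other spliceosome genes the 13 called higher became 31 with DESeq2, 4 with library totals, 7 with labelled sex, 7 with limma at both pseudocounts, 0 with the block and without those 3 libraries (37 and 2 at an unadjusted p under 0.05), and 0 to 12 without 1 library, while the 1 called lower became 2 with DESeq2, 0 with labelled sex, the block, limma at both pseudocounts and without those 3 libraries, and 0 to 3 without 1 library. For transcript length 0 genes were called in the main analysis and 0 to 2 without 1 library.

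The log2 fold change of Srsf3, -0.04, was -0.14 to 0.042 without 1 library, positive without PHZ 3 or PBS 3, and that of Srsf5, -0.05, was -0.22 to 0.046 without 1 library, positive without PHZ 1 or PHZ 3, and 0.019 without the 3 libraries with a sex mismatch. Of 368 values of the named genes under other settings, 288 kept direction and side of the threshold, 71 lost the call, 4 gained it and 5 changed sign. Fits without those 3 libraries compare 2 PHZ with 1 PBS library, whose spread is assumed to be like that of the others. The cause of the other changes was not tested. Same-numbered libraries correlated at 0.21, 0.057 and 0.0045 in their deviations from the group means, and differently numbered ones at -0.17 to 0.15. Deviations from a mean of 3 libraries depend on each other, so these values cannot decide whether the numbers give a pairing. Library sizes limit the precision of the least abundant genes, Prpf40b and Srsf12, and 3 rats a group limit all of them.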
